A study of Mus musculus with 2 samples.

Results

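The genes described here are 48 genes of the cell division cycle, 23 for DNA replication and S phase and 25 for G2 and mitosis, among 49585 gene identifiers in the count table. They were taken by symbol, and each of the 48 symbols matched 1 identifier. Messenger RNA was sequenced from CD11b+ cells pulled with magnetic beads out of digested subcutaneous tumours, which had been grown from mouse pancreatic cancer cell lines. CD11b, encoded by Itgam, is an integrin found on granulocytes, monocytes, macrophages and some dendritic cells and lymphocytes. Both groups carried the genotype that the labels write NRP2f/fCSF1R-iCRE on a BL6 background, that is a floxed Nrp2 gene with an inducible Cre recombinase driven by the Csf1r promoter, which monocytes and macrophages use. The test animals (Test NRP2 KO, here the knockout library) received tamoxifen daily by intraperitoneal injection once tumours were palpable, and the labels name no tamoxifen or vehicle for the control animals. Tamoxifen and the deletion therefore cannot be told apart, and tamoxifen is itself a ligand of oestrogen receptors. Tumours were taken at 15 days, and each group is 1 library made from the pooled RNA of 3 animals. Neither the age nor the sex of the animals is given in the sources used here.

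Counted reads came to 64153676 in the control and 68554172 in the knockout library. With 1 library per group there is no replicate check and no test across genes, so a fixed size of difference, 2-fold, is used to describe genes. Levels are in CPM, the reads of a gene scaled to a common library size after TMM normalisation. Each ratio has a 95% interval (Clopper-Pearson formula) computed on reads divided by 47 in the control and 24 in the knockout library, the estimated reads per captured fragment. Because the divisors are estimates and the quotients need not be whole numbers, the intervals are approximate. They cover counting error only and not differences between animals. Nrp2 itself was at 148 CPM in the control and 15.2 CPM in the knockout library, 9.71-fold lower (95% interval 6.95 to 13.9), and Itgam was at 294 and 422 CPM, 1.43-fold higher (1.28 to 1.61).

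A cell that divides first copies its DNA and then separates the copies. In late G1 the origins of replication are loaded with the MCM helicase, and cyclin E with its kinase starts S phase, when most genes of the replication machinery are transcribed through E2F factors. Genes of G2 and mitosis are transcribed later, largely through the MuvB complex with B-Myb and FOXM1, at promoters with a CHR element and CCAAT boxes that bind NF-Y. Most tissue macrophages and all mature neutrophils are out of the cycle, whereas monocyte progenitors, some tumour macrophages, activated lymphocytes and tumour cells divide.

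The promoters of these genes were compared by letters that the rule for the genes did not use. RefSeq promoters (GRCm38.p6, 250 bases before to 50 after the transcription start) were found for 40 of the 48 genes, 20 of each phase. They were searched on both strands for the E2F letters TTTCCCGC, TTTGGCGC, TTCCCGCC and TTGGCGGG, which overlap one another in part, for the CHR letters TTTGAA and TTTAAA, and for CCAAT. An E2F match stood at 1 or more starts of 11 of 20 replication genes and of 0 of 20 mitosis genes, against 4.6% of 27025 genes in the promoter table. CHR letters stood at 18 of 20 mitosis genes and 8 of 20 replication genes, against 30.6% of all genes. TTTGAA alone stood at 15 of 20 mitosis and 3 of 20 replication genes, against 20.2%. CCAAT stood at 18 of 20 mitosis and 12 of 20 replication genes, against 41.1%. CHR and CCAAT letters occurred together at 17 of 20 mitosis genes and 5 of 20 replication genes, against 12.2%. A match is a description of the letters and shows no binding.

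The promoters of the 3 most counted replication genes with an E2F match are shown first, 5′ to 3′ on the strand of the gene with the E2F letters in capitals. Those of Mcm3 (chr1:20820263-20820562, minus strand), Mcm6 (chr1:128359656-128359955, minus strand) and Rrm1 (chr7:102441445-102441744, plus strand) hold 3, 2 and 1 matches. The Mcm3 matches lie after the start, and 2 of them overlap.
Mcm3: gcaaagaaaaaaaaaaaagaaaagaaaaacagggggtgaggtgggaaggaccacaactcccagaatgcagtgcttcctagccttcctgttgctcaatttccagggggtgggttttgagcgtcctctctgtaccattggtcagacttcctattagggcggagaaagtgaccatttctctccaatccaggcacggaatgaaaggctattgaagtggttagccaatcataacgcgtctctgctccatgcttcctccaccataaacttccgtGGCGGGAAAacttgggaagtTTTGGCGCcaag
Mcm6: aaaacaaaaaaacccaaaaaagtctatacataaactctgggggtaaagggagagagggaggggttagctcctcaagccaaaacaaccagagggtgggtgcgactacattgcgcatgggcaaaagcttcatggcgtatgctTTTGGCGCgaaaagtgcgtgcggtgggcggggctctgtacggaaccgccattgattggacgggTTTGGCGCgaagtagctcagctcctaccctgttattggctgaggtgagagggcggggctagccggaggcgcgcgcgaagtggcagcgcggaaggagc
Rrm1: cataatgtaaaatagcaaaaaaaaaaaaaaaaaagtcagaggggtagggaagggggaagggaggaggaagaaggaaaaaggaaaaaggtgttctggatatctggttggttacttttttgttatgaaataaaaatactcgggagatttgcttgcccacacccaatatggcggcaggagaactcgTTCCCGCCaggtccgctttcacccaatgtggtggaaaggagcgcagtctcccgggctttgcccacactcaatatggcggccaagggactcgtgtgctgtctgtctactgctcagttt

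The promoters of the 3 most counted mitosis genes with a match follow, with the CHR and CCAAT letters in capitals, written ATTGG and TTCAAA where they lie on the other strand. They are those of Mki67 (chr7:135716330-135716629, minus strand), Cenpa (chr5:30666636-30666935, plus strand) and Top2a (chr11:99024140-99024439, minus strand). Ccnb2 (chr9:70421505-70421804, minus strand) and Hmmr (chr11:40733388-40733687, minus strand) were added after their values were seen, as genes with large differences between the libraries. In Ccnb2 and Hmmr a TTTGAA lies 4 and 8 bases after the start, with 3 and 5 CCAAT matches before it.
Mki67: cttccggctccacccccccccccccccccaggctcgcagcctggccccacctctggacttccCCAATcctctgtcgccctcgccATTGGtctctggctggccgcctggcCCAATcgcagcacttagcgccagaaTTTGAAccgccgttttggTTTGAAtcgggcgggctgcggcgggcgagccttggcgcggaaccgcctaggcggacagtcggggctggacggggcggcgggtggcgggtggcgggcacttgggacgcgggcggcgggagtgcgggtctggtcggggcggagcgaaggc
Cenpa: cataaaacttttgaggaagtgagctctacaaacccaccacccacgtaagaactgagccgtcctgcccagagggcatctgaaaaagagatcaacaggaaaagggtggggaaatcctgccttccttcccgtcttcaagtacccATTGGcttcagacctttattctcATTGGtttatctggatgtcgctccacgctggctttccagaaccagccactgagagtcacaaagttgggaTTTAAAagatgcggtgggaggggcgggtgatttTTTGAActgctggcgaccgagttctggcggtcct
Top2a: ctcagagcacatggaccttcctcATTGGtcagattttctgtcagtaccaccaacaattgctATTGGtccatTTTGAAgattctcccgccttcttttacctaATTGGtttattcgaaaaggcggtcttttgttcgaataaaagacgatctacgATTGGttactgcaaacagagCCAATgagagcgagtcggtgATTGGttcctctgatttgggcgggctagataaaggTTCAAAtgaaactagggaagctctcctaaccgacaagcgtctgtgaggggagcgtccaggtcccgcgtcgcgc
Ccnb2: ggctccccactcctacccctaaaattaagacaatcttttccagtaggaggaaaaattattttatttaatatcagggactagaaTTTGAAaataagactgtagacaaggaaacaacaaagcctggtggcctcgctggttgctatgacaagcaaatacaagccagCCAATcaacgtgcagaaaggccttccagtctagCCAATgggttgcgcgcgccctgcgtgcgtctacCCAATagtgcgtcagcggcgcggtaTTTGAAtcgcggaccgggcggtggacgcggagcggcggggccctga
Hmmr: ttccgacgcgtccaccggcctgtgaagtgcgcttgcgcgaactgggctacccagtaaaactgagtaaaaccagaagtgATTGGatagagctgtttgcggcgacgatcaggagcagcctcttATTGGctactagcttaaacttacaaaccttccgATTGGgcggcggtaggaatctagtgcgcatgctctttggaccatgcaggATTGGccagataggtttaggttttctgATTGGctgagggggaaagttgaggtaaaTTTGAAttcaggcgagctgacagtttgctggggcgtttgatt

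Cell cycle genes were lower in the knockout library, and mitosis genes by more than replication genes. Of the 48 genes, all of which had at least 50 reads over both libraries, 29 were lower by 2-fold or more and 0 were higher by as much. Of all 14420 genes that passed the same minimum, 14.7% were lower and 10.8% higher by 2-fold or more. Among the 10192 genes with as many reads as these 48 (237 to 18251 over both libraries), the shares were 8.65% and 7.2%. In all, 43 of the 48 were below the control by any amount, against 50.6% of all genes and 48.7% of those in the same range of reads. The interval lay wholly below 1 for 31 of the 48 and wholly above 1 for 0, against 11.1% and 12.6% of all genes and 11.6% and 13.4% of those in the same range. The count of 31 rests on the estimated reads per fragment and was 16 with that estimate doubled. The interval lay wholly past 2-fold lower for Tk1, Ccna2, Birc5 and Hmmr, against 1.03% of all genes and 1.25% of those in the same range. Hmmr, Ccne2 and Cenpf, all among the 29, had 50, 62 and 68 knockout reads, fewer than the 72 of 3 fragments.

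By phase, 22 of 25 mitosis genes and 7 of 23 replication genes were at least 2-fold lower. The median log2 ratio, knockout over control, was -1.56 for the mitosis genes and -0.82 for the replication genes, against -0.01 for all genes tested. The medians thus differed by -0.74 on the log2 scale, with 22 of 25 mitosis genes below the replication median and 1 of 23 replication genes, Tk1, below the mitosis median. Of the 15 genes with the lowest ratios 13 were mitosis genes, and the others were Tk1 and Rrm2. This difference between the phases has no replicate check. The phases also differed in read depth, with at least 1000 reads for 19 of 23 replication and 12 of 25 mitosis genes. Among those genes the medians differed by -0.555. Summed over its genes, the mitosis group was at 404 and 208 CPM, 1.94-fold lower (1.73 to 2.19), and the replication group at 698 and 494 CPM, 1.41-fold lower (1.3 to 1.53). The mitosis sum rests much on Mki67, Bub1b and Cenpa, the 3 genes of that group under 2-fold. Without them it was at 288 and 90.8 CPM, 3.17-fold lower (2.7 to 3.72). As these 3 were left out for their ratios, a larger fold was bound to follow. Together the 48 genes took 0.113% of the control counts and 0.0686% of the knockout counts. In such bulk samples, fewer dividing cells and less RNA per cell cannot be told apart.

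**Figure D1:**
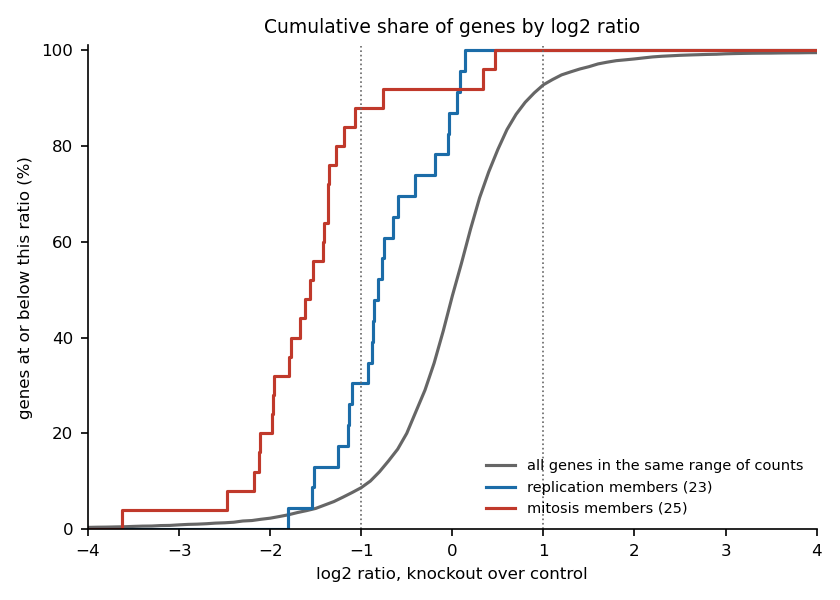
Cumulative share of genes (y axis, percent) at or below each log2 ratio, knockout over control (x axis), for the 23 replication genes, the 25 mitosis genes and all 10192 genes in the same range of counts; dotted lines mark 2-fold. At 2-fold lower the mitosis curve has passed 22 of 25 genes and the replication curve 7 of 23, while the curve of all genes is at 8.65%.

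Among the factors that load and fire the replicative helicase, 2 of 10 were at least 2-fold lower and 8 of 10 below the control. For this group and those that follow, the shares of all genes in the same range of reads were 8.65% and 48.7%. Mcm2 to Mcm7 encode the 6 subunits of the MCM ring, and 5 of them were lower by similar folds. Mcm5 was at 30.6 CPM in the control and 13.9 CPM in the knockout library, 2.21-fold lower (1.39 to 3.5). Mcm6 was at 66.9 and 36.2 CPM, 1.85-fold lower (1.38 to 2.47), and Mcm7 at 31.6 and 17.3 CPM, 1.83-fold lower (1.19 to 2.81). Mcm2 was at 23.9 and 14 CPM, 1.7-fold lower (1.04 to 2.77), and Mcm4 at 61.6 and 39.2 CPM, 1.57-fold lower (1.17 to 2.1). Mcm3 stood apart from its partners at 61.2 and 67.5 CPM, a ratio of 1.1 (0.849 to 1.44), and its interval does not overlap those of Mcm5, Mcm6 and Mcm7. Scaled by exon length (TPM), the levels of the 6 subunits ranged from 9.46 (Mcm2) to 47.2 (Mcm4) in the control and from 5.53 (Mcm2) to 49.3 (Mcm3) in the knockout library, so Mcm3 was second to Mcm4 in the control and the highest of the 6 in the knockout library.

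Gins2, a subunit of the GINS complex that activates the helicase, was at 11.9 and 4.99 CPM, 2.39-fold lower (1.1 to 5.27). Of its exon bases 67.3% overlap those of Gse1 on the opposite strand, and the sources used here do not say whether counting used the strand. Cdc45, which joins GINS and MCM in the active helicase, was at 7.86 and 7.63 CPM. Its ratio of 0.971 has an interval of 0.448 to 2.23, and its sign turned when a trend with GC content and length was removed. The loading factors Cdt1, at 17.3 and 18.3 CPM (ratio 1.06, 0.641 to 1.8), and Cdc6, at 2.44 and 1.61 CPM (1.51-fold lower, 0.257 to 7.9), had intervals that include 1. Cdc6 rests on 160 and 108 reads, too few to place it on either side.

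Genes of nucleotide supply were lower throughout. All 5 were below the control, 2 of them at least 2-fold, and their sum of 127 and 60.4 CPM was 2.1-fold lower (1.69 to 2.61). Tk1, thymidine kinase of the salvage route, was at 29.1 CPM in the control and 8.32 CPM in the knockout library, 3.49-fold lower (2.05 to 6.1). Rrm2, the S phase subunit of ribonucleotide reductase, was at 19.5 and 6.73 CPM, 2.9-fold lower (1.55 to 5.53). Its partner Rrm1, which is less tied to S phase, was at 56.6 and 33.6 CPM, 1.68-fold lower (1.23 to 2.29). Tyms, thymidylate synthase, was at 12.3 and 6.45 CPM (1.9-fold lower, 0.922 to 3.9). Dut, which removes dUTP, was at 9.38 and 5.31 CPM (1.76-fold lower, 0.773 to 3.98). The intervals of Tyms and Dut include 1.

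The group of DNA synthesis and joining genes was split. Lig1, the ligase that joins Okazaki fragments, was at 35.9 and 16.7 CPM, 2.15-fold lower (1.42 to 3.28). Uhrf1, which brings maintenance methylation to new DNA, was at 20.5 and 9.38 CPM, 2.19-fold lower (1.24 to 3.87). Pcna, the sliding clamp of DNA polymerases and the most counted of the 48 genes, was level between the libraries at 139 and 136 CPM, a ratio of 0.978 with an interval of 0.821 to 1.17. Reads of Pcna could be split with the 2 annotated pseudogenes named after it. Fen1, the flap nuclease of lagging strand synthesis, was at 28.1 and 29.2 CPM (ratio 1.04, 0.701 to 1.56). The signs of Pcna and Fen1 each turned under some settings. Pola1 and Prim1, subunits of the polymerase alpha and primase complex, were at 10.3 and 7.76 CPM (ratio 0.754, 0.37 to 1.58) and at 7.57 and 6.64 CPM (ratio 0.878, 0.391 to 2.08). The E-type cyclin genes were both below the control, Ccne1 at 11.5 and 6.36 CPM (1.81-fold lower, 0.866 to 3.78) and Ccne2 at 2.67 and 0.926 CPM (2.86-fold lower, 0.437 to 23.4). Neither interval excludes 1.

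**Figure D2:**
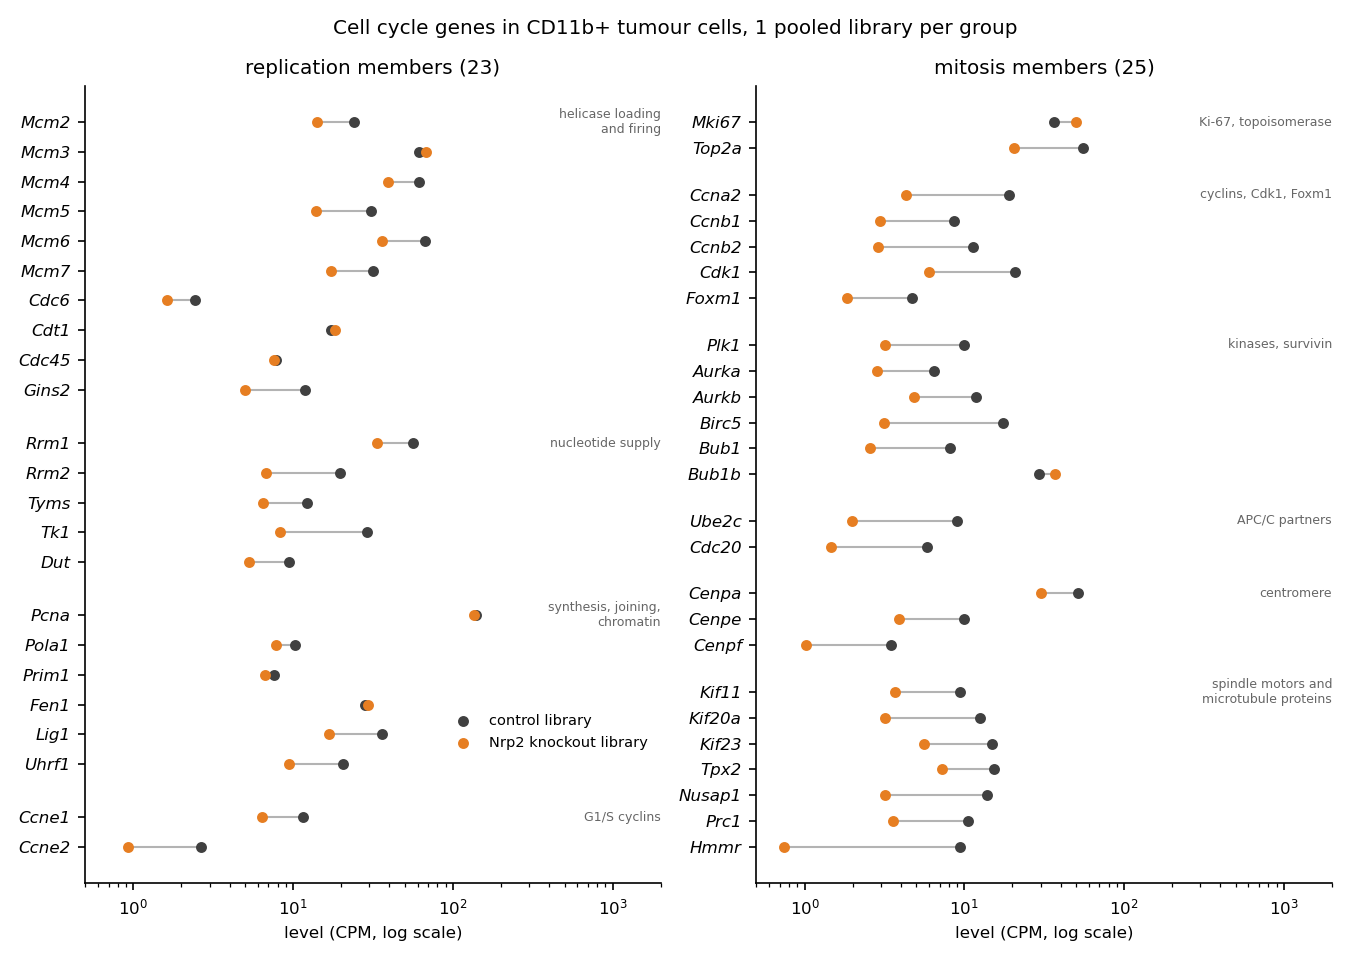
Level of each of the 48 genes in CPM (x axis, log scale) in the control library (dark) and the Nrp2 knockout library (orange), 1 pooled library each, with genes on the y axis grouped by role. In the mitosis panel the knockout point lies left of the control point for all genes but Mki67 and Bub1b, and in the replication panel Mcm3, Cdt1 and Fen1 lie right of it.

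The mitotic cyclins and their kinase were lower together: all 5 genes of this group, Foxm1 included, were at least 2-fold lower, and their sum of 64.5 and 18.1 CPM was 3.57-fold lower (2.5 to 5.14). Ccna2 encodes cyclin A2, which acts in S phase and G2, and was at 18.9 CPM in the control and 4.33 CPM in the knockout library, 4.37-fold lower (2.14 to 9.48). Cdk1, the kinase that drives entry into mitosis, was at 20.8 and 6.02 CPM, 3.46-fold lower (1.83 to 6.73). Its B-type cyclins Ccnb2 and Ccnb1 were at 11.4 and 2.9 CPM, 3.93-fold lower (1.59 to 10.6), and at 8.61 and 2.99 CPM, 2.88-fold lower (1.09 to 7.99). Foxm1, a transcription factor of G2 and M genes, was at 4.74 and 1.85 CPM, 2.55-fold lower, with an interval of 0.688 to 10.2 that includes 1.

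Of the mitotic kinases and survivin, 5 of 6 were at least 2-fold lower. Birc5 encodes survivin, a subunit of the chromosomal passenger complex, and was at 17.5 and 3.13 CPM, 5.57-fold lower (2.49 to 13.8). Its partner kinase Aurkb was at 11.8 and 4.87 CPM, 2.43-fold lower (1.12 to 5.4). Birc5 (chromosome 11, 117849251 to 117855743, plus strand) starts 23159 bases past Tk1 (chromosome 11, 117815526 to 117826092, minus strand), so the lowest replication gene and the second lowest mitosis gene are near neighbours. Plk1, a kinase of centrosome maturation and mitotic exit, was at 9.88 and 3.21 CPM, 3.07-fold lower (1.24 to 8.1). Bub1, a spindle checkpoint kinase, was at 8.18 and 2.57 CPM, 3.18-fold lower (1.15 to 9.52). Aurka, the kinase of spindle poles, was at 6.46 and 2.82 CPM, 2.29-fold lower with an interval of 0.782 to 6.86. Bub1b, which encodes the checkpoint protein BubR1, went the other way at 29.2 and 36.7 CPM, a ratio of 1.26 (0.868 to 1.86). The interval of Bub1b overlaps that of Bub1 only between 0.868 and 0.871.

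Ube2c and Cdc20, the conjugating enzyme and the activator of the anaphase-promoting complex, were at 8.96 and 1.97 CPM (4.53-fold lower, 1.55 to 15.4) and at 5.8 and 1.46 CPM (3.95-fold lower, 1.08 to 17.7). At the centromere, the motor gene Cenpe was at 10 and 3.88 CPM, 2.57-fold lower (1.08 to 6.31), and Cenpf at 3.49 and 1.02 CPM, 3.42-fold lower (0.644 to 23.6). Cenpa, the histone variant that marks centromeres, was at 51.4 and 30.2 CPM, 1.7-fold lower (1.22 to 2.36). Cenpa was thus the best counted gene of the centromere group and the one with the smallest difference.

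All 7 spindle motors and microtubule proteins were at least 2-fold lower, with intervals wholly below 1, and their sum of 85.7 and 27.2 CPM was 3.15-fold lower (2.34 to 4.25). Hmmr (chromosome 11, 40701395 to 40733422, minus strand), a hyaluronan receptor that also binds spindle microtubules, had the largest difference of the 48 genes. Its level was 9.34 CPM from 613 control reads and 0.746 CPM from 50 knockout reads, 12.4-fold lower, with a wide interval of 2.89 to 107 because 50 reads stand for about 2 fragments. Nusap1, a microtubule bundling protein, was at 13.8 and 3.19 CPM, 4.33-fold lower (1.87 to 10.9). Kif20a and Kif23, kinesins of cytokinesis, were at 12.5 and 3.21 CPM (3.89-fold lower, 1.65 to 9.9) and at 14.8 and 5.58 CPM (2.65-fold lower, 1.31 to 5.48). Prc1, which cross-links microtubules of the midzone, was at 10.6 and 3.57 CPM, 2.95-fold lower (1.24 to 7.39). Kif11, the kinesin that pushes spindle poles apart, was at 9.43 and 3.66 CPM, 2.57-fold lower (1.05 to 6.5), and Tpx2, which activates Aurora A, at 15.3 and 7.27 CPM, 2.1-fold lower (1.09 to 4.06).

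Mki67 and Top2a, the usual markers of dividing cells, had ratios on opposite sides of 1. Top2a (chromosome 11, 98992943 to 99024189), the topoisomerase that untangles chromosomes, was at 55.2 CPM in the control and 20.6 CPM in the knockout library, 2.68-fold lower (1.88 to 3.84). Mki67 (chromosome 7, 135689784 to 135716361), the gene of the proliferation antigen recognised by the Ki67 antibody, was at 36.2 and 50.2 CPM, a ratio of 1.39 with an interval of 0.998 to 1.95. The 2 intervals do not overlap, but that of Mki67 includes 1. With a trend of GC content and length removed, the log2 ratio of Mki67 fell from 0.47 to 0.146 and that of Top2a was -1.6. Both promoters printed above hold TTTGAA and CCAAT letters, as does that of Bub1b, so these letters did not set Mki67 and Bub1b apart. Within the mitosis genes the median log2 ratio was -1.56 for the 15 with TTTGAA and -1.67 for the 5 without it. For CHR letters of either kind it was -1.54 for the 18 mitosis genes with them and -1.89 for the 2 without. For CHR and CCAAT letters together it was -1.52 for the 17 mitosis genes with both and -2.11 for the other 3. Within the replication genes the median was -0.99 for the 8 with CHR letters, 4 of them at least 2-fold lower, and -0.67 for the 12 without, 1 of them at least 2-fold lower. For TTTGAA alone the order was the reverse, -0.04 for the 3 replication genes with it (0 lower) and -0.86 for the 17 without (5 lower). For CHR and CCAAT letters together it was -1.13 for the 5 replication genes with both (3 lower) and -0.75 for the other 15 (2 lower). For E2F letters it was -0.75 for the 11 with a match and -0.82 for the 9 without. These medians of few genes are given as a description.

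**Figure D3:**
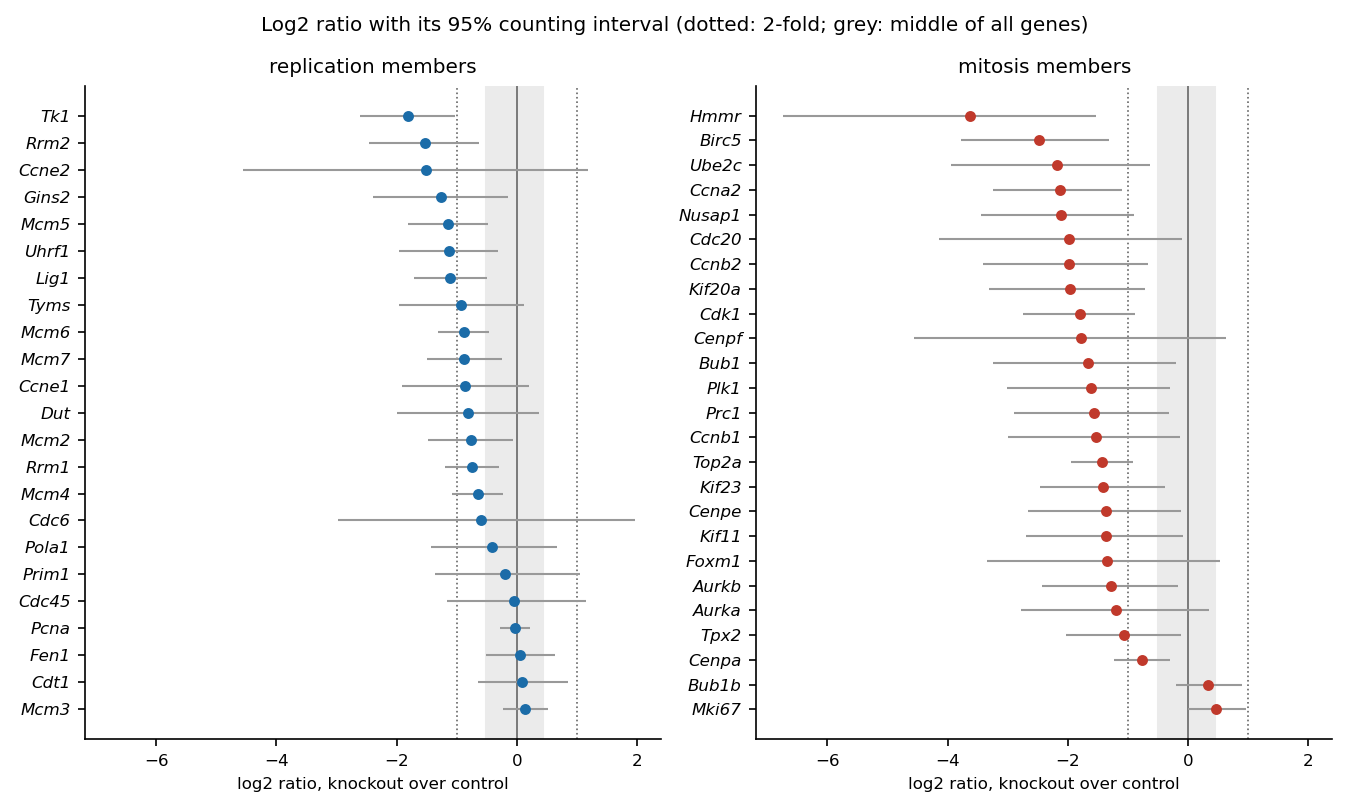
Log2 ratio of each gene, knockout over control (x axis; points), with its 95% counting interval (lines), replication genes left and mitosis genes right, ordered by ratio. Dotted lines mark 2-fold and the grey band spans the quartiles of all 14420 genes, from -0.51 to 0.44; Hmmr, Birc5, Ccna2 and Tk1 have intervals wholly past 2-fold, and Mki67 and Bub1b lie right of 0.

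The authors' deposited table gives the same comparison with a p-value per gene, from 1 library per group. It gives 43 of the 48 genes a negative log2 fold change, 5 an unadjusted p under 0.05 and 0 an adjusted p under 0.05, and 0 of all genes pass that adjusted threshold. The smallest values among the 48 in the authors' deposited table are those of Hmmr, with p = 0.0156 and adjusted p = 0.97.

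Genes of the cycle outside the 48 were read from 4 further lists. Of 42 other replication genes 6 were lower by 2-fold or more and 1, Orc2, was higher by as much, with a median log2 ratio of -0.42. The shares were 14.7% and 10.8% of all genes tested, and 8.65% and 7.2% of genes in the range of reads of the 48. Orc1, the origin recognition subunit that is regulated in G1, was at 6.26 and 2.55 CPM (2.45-fold lower, 0.808 to 7.73). Mcm10, Pole and Rpa2, further genes of fork assembly, leading strand synthesis and single strand binding, were between 1.39-fold and 1.79-fold lower with intervals that include 1. Dnmt1, the maintenance methyltransferase, was at 55.2 and 48.9 CPM (ratio 0.887, 0.666 to 1.19), the licensing inhibitor gene Gmnn at 15.7 and 11.9 CPM (ratio 0.759, 0.43 to 1.37), and the histone message binding gene Slbp at 31.1 and 32.7 CPM (ratio 1.05, 0.726 to 1.55). Orc2 was named after its values were seen and was at 15.8 and 33.2 CPM, 2.1-fold higher (1.31 to 3.5), a call that was lost when a trend with GC content and length was removed.

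Of 53 other mitosis genes 23 were lower by 2-fold or more and 0 higher by as much, against 14.7% and 10.8% of all genes. Their median was -0.76. Kif2c, a kinesin that corrects attachments, was at 15.9 and 4.81 CPM, 3.31-fold lower (1.61 to 7.08). Stmn1, which destabilises microtubules, was at 29.4 and 8.78 CPM, 3.35-fold lower (1.98 to 5.77), and Cdca8, the passenger protein borealin, at 11.1 and 4.84 CPM, 2.3-fold lower (1.04 to 5.16). Aspm, Ndc80 and Ncapg were 4.16-fold, 2.75-fold and 2.14-fold lower with intervals that include 1. Smc4, a condensin subunit, was at 45 and 43.4 CPM (ratio 0.964, 0.705 to 1.33), and the checkpoint kinase gene Ttk had only 107 and 98 reads. Thus among genes outside the 48 too, a larger share of the mitosis list than of the replication list was at least 2-fold lower. The replication count, 6 of 42, was near the share of all genes, 14.7%. Intervals lay wholly below 1 for 12 of 53 mitosis and 5 of 42 replication genes, against 11.1% of all genes. They lay wholly above 1 for 0 and 2, against 12.6%. With a minimum of 1000 reads, which fewer genes reach, 4 mitosis and 0 replication genes of these lists were at least 2-fold lower.

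Of 29 regulators of the entry into the cycle 3 were lower and 1 was higher by 2-fold or more, against 14.7% and 10.8% of all genes (median -0.16). The D-type cyclin genes differed among themselves. Ccnd2 was at 69.6 and 25.3 CPM, 2.75-fold lower (2 to 3.79), and Ccnd1 at 69.6 and 31.7 CPM, 2.19-fold lower (1.63 to 2.96), while Ccnd3 was level at 59.8 and 60.9 CPM (ratio 1.02, 0.779 to 1.34). Of their kinases Cdk4 was at 106 and 76.3 CPM, 1.39-fold lower (1.12 to 1.72), and Cdk6 at 32.1 and 54.4 CPM, 1.69-fold higher (1.21 to 2.42). Cdk2, the partner of cyclins E and A, was at 31.1 and 23.5 CPM (ratio 0.754, 0.507 to 1.13). Among transcription factors E2f4 was at 56.1 and 30.2 CPM, 1.86-fold lower (1.35 to 2.56), and the intervals of E2f1 (1.52-fold lower), E2f8, Mybl2 and Myc (ratios 0.951, 0.956 and 0.773) include 1. The pocket protein genes Rb1 and Rbl1 were at 66.5 and 58.5 CPM and at 25.9 and 22.8 CPM, with intervals that include 1. The remaining pocket protein gene, Rbl2, named after its values were seen, was at 42.1 and 65.4 CPM, 1.55-fold higher (1.15 to 2.12). The other gene at least 2-fold lower was E2f7, with 169 and 21 reads, and the 1 at least 2-fold higher was Wee1, both named after their values were seen.

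The last list, of arrest genes for short, holds CDK inhibitors, p53 and its targets, and antiproliferative genes. Of its 17 measured genes 2 were lower and 1 was higher by 2-fold or more, against the same shares of all genes, with a median of -0.05. Cdkn1a, which encodes the inhibitor p21, was far more counted than any of the 48 genes, at 580 CPM in the control and 560 CPM in the knockout library, a ratio of 0.966 (0.887 to 1.05). Cdkn1b, which encodes p27, was at 74.5 and 64.2 CPM (ratio 0.862, 0.674 to 1.11), and Cdkn2c at 7.01 and 4.17 CPM (ratio 0.595, 0.232 to 1.56). Cdkn2a had 0 reads in both libraries, which allows up to 141 reads in the control and 72 in the knockout library, or 3 fragments each. Trp53 was at 43.7 and 20.1 CPM, 2.18-fold lower (1.49 to 3.19), and the targets of p53 named here differed among themselves. Ccng1 was at 82.5 and 80.4 CPM (ratio 0.975, 0.775 to 1.23). Mdm2 was at 96 and 136 CPM, 1.41-fold higher (1.16 to 1.73), and Sesn1 at 67.5 and 40.2 CPM, 1.68-fold lower (1.26 to 2.23). Mdm2 and Sesn1 were named after their values were seen. Btg2, an antiproliferative gene, was at 824 and 973 CPM, 1.18-fold higher (1.1 to 1.27). The others past 2-fold, named after their values were seen, were Cdkn2b, with 177 and 41 reads, and Tob1, which was higher.

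Markers of the cells that a CD11b selection could hold differed between the same libraries. Of all genes tested 14.7% were lower and 10.8% higher by 2-fold or more. T and NK cell markers summed to 320.5 and 108 CPM, with 14 of 18 at least 2-fold lower. B and plasma cell markers summed to 253 and 92.9 CPM, with 8 of 10 at least 2-fold lower and Pax5 at 0 in the knockout library. Intervals lay wholly below 1 for 13 of the 18 T and NK cell markers and 4 of the 10 B and plasma cell markers. Cd22 was higher, at 42.8 and 70.3 CPM (ratio 1.64, 1.22 to 2.23). The B and plasma cell sum was 9.32-fold lower without Cd22 and 1.62-fold lower without Ighm. Endothelial markers summed to 98.5 and 35.4 CPM, with 7 of 9 at least 2-fold lower. Dendritic cell markers summed to 601 and 348 CPM (277 and 96.5 CPM without Irf8), with 6 of 9 at least 2-fold lower and Xcr1 at 0 in the knockout library. Fibroblast markers summed to 353 and 223 CPM, with 2 of 9 at least 2-fold lower and 1 higher. Intervals lay wholly below 1 for 4 of the 9 endothelial, 6 of the 9 dendritic cell and 3 of the 9 fibroblast markers. Epithelial markers, which tumour cells can carry, summed to 214 and 142 CPM. Of 10 measured genes 4 were at least 2-fold lower and 3 had intervals wholly below 1. Muc1, among the latter, had only 9 knockout reads, fewer than those of 1 fragment. Cldn4 and Cldn7 were at 0 in both libraries and Sox9 at 0 in the knockout library. Pax5, Xcr1 and Sox9 had only 56, 111 and 112 control reads, fewer than the 141 of 3 fragments, and their intervals include 1. Erythroid markers were near 0, at 4.49 and 1.43 CPM in sum with Alas2 at 0 in both libraries and Hba-a2 and Hbb-bt at 0 in the control. Macrophage markers summed to 39633 and 49378 CPM, with 0 of 12 at least 2-fold lower and 1 higher. Intervals were wholly below 1 for 5 of them (Csf1r, Adgre1, C1qa, C1qb and Fcgr1) and wholly above 1 for 6, and without Apoe and Lyz2 the sum was at 14301 and 14818 CPM, a ratio of 1.04 (1.02 to 1.05). Monocyte and neutrophil markers summed to 2409 and 7765 CPM, but the direction rests on Chil3 alone, at 338 and 6067 CPM: without it the sum was at 2071 and 1699 CPM, 1.22-fold lower (1.16 to 1.28). Of the 12 markers 4 were at least 2-fold lower (Ccr2, Plac8, Cx3cr1 and Treml4) and 3 were higher (Chil3, Ly6c2 and Ly6g), with a median log2 ratio of -0.02. Ly6g was at 0 in the control and had 96 knockout reads, and its interval includes 1. Intervals were wholly below 1 for 5 of the 12 and wholly above 1 for 4 (Chil3, Ly6c2, S100a8 and S100a9). The sums of the replication and mitosis genes were lower beside lymphocyte, dendritic, endothelial, fibroblast and epithelial markers. The part of these cells in the cell cycle values was not tested.

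**Figure D4:**
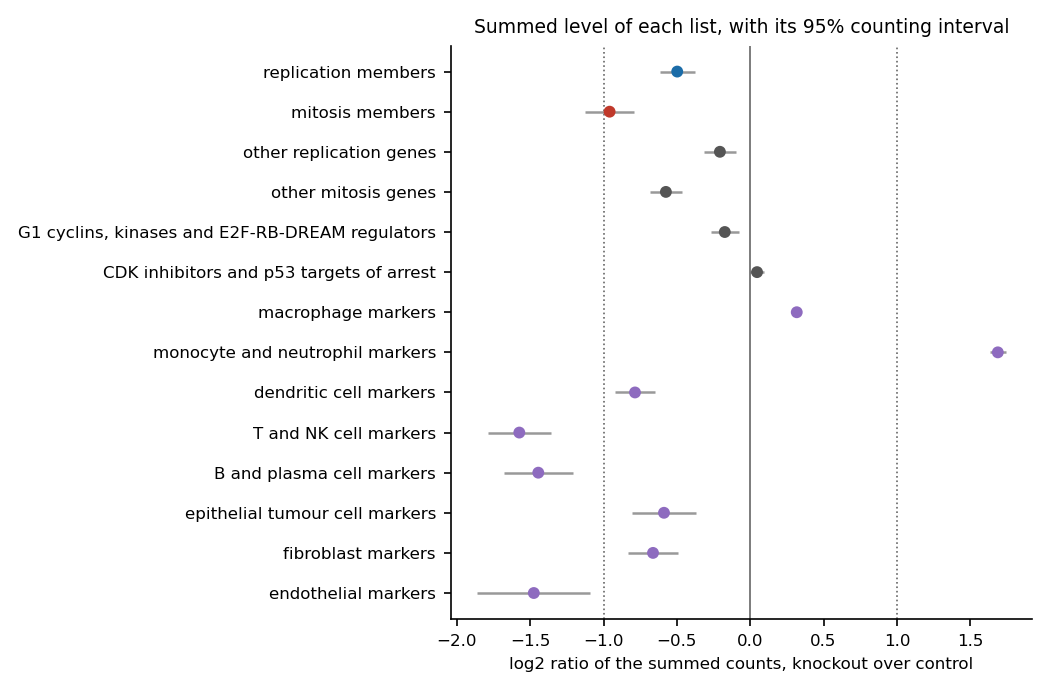
Log2 ratio of the summed counts of each list, knockout over control (x axis), with its 95% counting interval (lines), for the replication and mitosis genes, the 4 other cell cycle lists (dark grey) and 8 lists of cell markers (purple). The mitosis sum lies left of the replication sum, and T and NK cell, B cell and endothelial markers lie further left, while macrophage markers and, through Chil3 alone, monocyte and neutrophil markers lie right of 0.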

How the data were processed

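RNA was pooled from 3 animals per group, and sample titles gave the groups, 1 library each. Per the labels' protocols a TruSeq stranded mRNA kit was used; per the submitters' processing notes the tools were cutadapt, HISAT2 and featureCounts on GRCm38, without versions or options. The authors deposited whole-number read counts per Ensembl gene, without normalisation. Their deposited comparison table holds a normalised signal, the counts divided by 0.995 (control) and 1.01 (knockout) as a check on the values showed, with a log2 fold change and its error, a score that is their quotient, and p-values. The tool behind that table is not named by the labels or headers. PCR copies count as reads, since the labels mention no molecular identifiers.

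Symbols matched 49326 of 49585 identifiers, and exon lengths and coordinates came from GENCODE M21 (GRCm38). TMM factors were computed with edgeR 4.0.16 in R 4.3.3, and log2 ratios with a prior count of 0.5 for genes with 50 reads or more in sum. Reads per fragment are the median reads of genes at 0 in the other library and above 4 in the one concerned (control 867 genes, knockout 2114). A count of 0 allows 3 fragments. The 95% intervals were computed with SciPy 1.17.1, and TPM from reads per exon base. The ratio and interval steps were tested on simulated data with a constant number of reads per fragment and without TMM. That test does not cover reads per fragment that vary or are estimated with error. Size factors of DESeq2 1.42.0 were 1 alternative.

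The 48 genes, the lists and the rules were chosen with earlier results of these data known. All 48 genes, Nrp2 and Itgam are given with values, outside the 48 a written list of symbols was followed (some of its genes are not reported here), and promoters were shown for the 3 most counted genes of each phase that hold the letters searched; exceptions are named as chosen after their values were seen. Of the 48 genes, 13 share exon bases with another counted gene on the opposite strand, and 4 have a pseudogene named after them.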

Additional observations from a re-analysis of the deposited data

How the results depend on the processing

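Under total counts, DESeq2 size factors or upper-quartile factors in place of TMM, a prior count of 2, and removal of a GC and length trend, the 29 calls of members at least 2-fold lower were kept each time (145 over 5 settings) and 0 were gained. The signs of Cdc45 and Pcna turned when the trend was removed (0.05 and 0.09), and that of Fen1 turned under total counts (-0.01) and upper-quartile factors (-0.0031). With at least 1000 reads over both libraries, 15 of 31 members were lower by 2-fold or more. Without members whose exons overlap another gene, an alternative chosen after seeing the data, it was 19 of 35. Fewer genes are tested in both, and the shares of all genes under these settings were not taken. The mitosis median minus the replication median was -0.744, and -0.555 and -0.646 under these 2 settings. The summed ratio of the replication genes was 0.708, or 0.641 without Pcna. That of the mitosis genes was 0.514, 0.438 with Mki67 and Top2a counted as replication genes, and 0.316 without Mki67, Bub1b and Cenpa; both leave-outs were chosen after seeing the data. The summed marker ratios moved, in alternatives chosen after seeing the data, from 1.25 to 1.04 without Apoe and Lyz2 (macrophage), 3.22 to 0.82 without Chil3 (monocyte and neutrophil, a turn of direction), 0.58 to 0.349 without Irf8 (dendritic) and 0.367 to 0.107 without Cd22 or 0.618 without Ighm (B and plasma cell). The interval lay wholly below 1 for 41 members on undivided reads and for 16 with the reads per fragment doubled. In the lists outside the 48, a minimum of 1000 reads left 0 other replication genes (median -0.22), 4 other mitosis genes (median -0.64) and 1 gene of arrest at least 2-fold lower. Fewer genes of each list reach that minimum, and the share of all genes at it was not taken. Removal of the trend left 0 other replication genes at least 2-fold higher, and total counts and upper-quartile factors gave the arrest genes a median of -0.12 and -0.11; the cause was not tested. Depth limits the least counted genes, since the 48 stood on about 3.4 to 194 fragments in the control and 2.08 to 380 in the knockout library. No paired analysis was possible because each group has 1 library.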

Other observations

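Among cell cycle genes outside the 48, 4 were picked out after their values were seen. Wee1, the kinase that holds CDK1 inactive before mitosis, was at 5.59 CPM in the control and 23.6 CPM in the knockout library, 4.21-fold higher (95% counting interval 2 to 10.3). Tob1, an antiproliferative gene of the BTG family, was at 21.9 and 79.9 CPM, 3.65-fold higher (2.49 to 5.51). Gins1, a partner of Gins2 in the GINS complex, was at 9.85 and 1.58 CPM, 6.2-fold lower (2.02 to 24.1). Cenpn, which binds the centromeric nucleosome, had 326 and 38 reads and was 8.65-fold lower (1.47 to 128). Each of these values comes from 1 pooled library per group.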
